A study of Mus musculus with 20 samples.

Results

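The genes described here are 41 interferon-stimulated genes and interferon-inducible GTPases, found by symbol among the 22878 gene symbols of the deposited RNA tables. All 41 were found. They were set out by role as 6 sensors and transcription factors, 22 effectors of the type I interferon type, 9 guanylate-binding proteins and immunity-related GTPases (the Gbp and Irg genes), and 4 genes of antigen processing. The sensors, factors and effectors are together called the 28 type I type genes below. Where a symbol had several transcript rows, as for 11 of the 41, the row with the most reads was used.

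Mouse CD4 T cells were sorted with reporters of T-bet, a factor that directs the T helper 1 (Th1) fate, and the study sequenced polyadenylated RNA from 12 libraries, 2 in each of 6 groups. The spleen cells came from naive ZTCE-tdTomato mice on a C57BL/6 background, which carry T-bet-ZsGreen-T2A-CreERT2 and Rosa26-loxP-STOP-loxP-tdTomato. They were CD4+CD44highCD25- and tdTomato+, and were split into T-bet-ZsGreen+ cells (reporter on) and T-bet-ZsGreen- cells (reporter off). The lymph node cells came from C57BL/6 mice that carry T-bet-Cre together with the same Rosa26 tdTomato reporter. Draining nodes were taken 16 days after AS15 in CFA had been injected, and AS15 tetramer+ cells were kept. They were split into T follicular helper (Tfh) cells, CXCR5highPD1high, and non-Tfh cells, CXCR5lowPD1low, and each into Tomato+ cells, in which Cre driven by T-bet had marked the cell or its ancestors, and Tomato- cells. The labels used here give no age, no agent used to activate CreERT2, and no statement that replicates came from separate animals, so the p-values measure the spread between libraries, which may be technical.

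Interferons act through receptors that signal by Janus kinases and STAT proteins. Type I interferons mainly activate a complex that contains STAT2 and IRF9, which binds interferon-stimulated response elements and turns on antiviral effectors such as the Ifit, Oas and Mx families. Interferon gamma, a cytokine that Th1 cells make, acts through gamma-activated sequences and induces IRF1, the Gbp and Irg GTPases that attack the vacuoles of intracellular pathogens, and the immunoproteasome. Many of the genes answer both signals.

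The depth was 13169783 to 24174592 reads over genes per library. RPKM (reads scaled by transcript length and library depth, the authors' values) were used for levels, and read counts for tests. The genes behind the sort followed the labels: Tbx21, which encodes T-bet, stood at 193 and 214 RPKM in spleen ZsGreen+ and 45.3 and 46.4 in ZsGreen-, and at 53.0 to 183 in the 4 Tomato+ libraries against 10.4 to 12.9 in the 4 Tomato- libraries. Cxcr5 stood at 258 to 394 RPKM in Tfh and 27.8 to 113 in non-Tfh libraries. All 6 CD4 T cell markers found in the tables were above 1 RPKM in every library. Replicates lay close together in the spleen and far apart in the lymph node: 0.247% and 0.275% of genes with a mean of 5 RPKM or more over the 12 libraries differed over 2-fold between the replicates of the spleen groups, against 22.5% to 30.1% in the lymph node groups. The biological coefficient of variation fitted by edgeR was 0.0867 for the 4 spleen libraries and 0.908 for the 8 lymph node libraries.

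Because the Gbp and Irg genes and the Ifitm genes carry most of the results, the stretches just before some of their transcription starts are shown. They are those of Igtp, Irgm2, Gbp2, Gbp7, Ifitm1 and Ifitm2, with 2 effector genes for comparison. Each runs 5′ to 3′ on the gene's strand over the 150 bases that end at the start, from the promoter windows of RefSeq on build GRCm38.p6. The read tables use build mm9 and no position of theirs is used here. Capitals mark matches to an interferon-stimulated response element core, which is 2 copies of GAAA with any 2 bases between them, or to a gamma-activated sequence, TTCNNNGAA, searched on both strands, with overlapping matches kept.
Igtp, chr11:58199406-58199555, plus strand: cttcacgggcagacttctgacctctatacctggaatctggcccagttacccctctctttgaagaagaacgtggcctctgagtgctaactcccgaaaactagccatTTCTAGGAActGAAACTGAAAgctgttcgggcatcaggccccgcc
Irgm2, chr11:58214827-58214976, plus strand: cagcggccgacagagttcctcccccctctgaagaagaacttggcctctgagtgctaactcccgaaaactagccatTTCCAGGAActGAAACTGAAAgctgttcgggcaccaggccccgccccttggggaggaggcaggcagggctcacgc
Gbp2, chr3:142620513-142620662, plus strand: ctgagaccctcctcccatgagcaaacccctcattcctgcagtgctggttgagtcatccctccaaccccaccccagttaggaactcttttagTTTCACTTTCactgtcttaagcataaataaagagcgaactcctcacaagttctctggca
Gbp7, chr3:142530186-142530335, plus strand: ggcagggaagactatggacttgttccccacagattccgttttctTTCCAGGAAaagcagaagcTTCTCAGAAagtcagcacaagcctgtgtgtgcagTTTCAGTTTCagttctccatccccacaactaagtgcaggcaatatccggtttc
Ifit1, chr19:34640739-34640888, plus strand: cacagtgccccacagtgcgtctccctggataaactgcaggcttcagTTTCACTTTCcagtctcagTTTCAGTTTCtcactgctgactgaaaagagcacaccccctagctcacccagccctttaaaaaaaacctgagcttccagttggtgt
Isg15, chr4:156200819-156200968, minus strand: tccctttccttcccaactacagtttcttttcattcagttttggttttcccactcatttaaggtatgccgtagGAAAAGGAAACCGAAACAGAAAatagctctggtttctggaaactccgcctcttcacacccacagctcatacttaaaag
Ifitm1, chr7:140967926-140968075, plus strand: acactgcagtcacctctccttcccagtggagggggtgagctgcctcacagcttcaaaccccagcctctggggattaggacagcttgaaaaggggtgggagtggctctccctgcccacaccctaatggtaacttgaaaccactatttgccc
Ifitm2, chr7:140955962-140956111, minus strand: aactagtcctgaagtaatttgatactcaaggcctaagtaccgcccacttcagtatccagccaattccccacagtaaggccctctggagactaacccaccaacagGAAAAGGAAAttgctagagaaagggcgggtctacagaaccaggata

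Igtp and Irgm2, which lie near each other on chromosome 11, share 103 of 120 aligned bases in these stretches, and in both a gamma-activated sequence match is followed after a few bases by a response element match. The stretch of Irgm1, not printed, held 2 response element matches, and those of Ifitm3 and Oasl1, also not printed, held no match. Just after its start, however, Ifitm3 held response element matches and a gamma-activated sequence match. Over the full windows of 300 bases, which reach 250 before and 50 after the start, 30 of the 41 genes had an entry. The response element core was present in 18 of those 30 (60.0%), against 3.99% of all 27025 genes in the table. It was present in 6 of 6 Gbp and Irg genes, 3 of 5 sensors and factors, 9 of 16 effectors and 0 of 3 antigen processing genes. The gamma-activated sequence was present in 10 of 30 (33.3%), against 9.55% of all genes, with 3 of 6 among the Gbp and Irg genes. Of the genes that rose in spleen ZsGreen+ cells, described further on, 8 of 12 with an entry held the response element core and 6 the gamma-activated sequence, and of those that did not pass, 10 of 17 and 3. These are matches of letters in a short window, and a window with no match, such as the one of Ifitm1, shows only that these letters are not in it.

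In the spleen all 41 genes had reads in every library, and 40 had a mean of at least 5 RPKM. In the lymph node 38 of 41 had reads in every library and 33 had a mean of at least 5 RPKM. The exceptions with 0 reads in some library were Mx2, Oas2 and Rsad2. The median of the 41 mean levels was 27.8 RPKM over the 4 spleen libraries and 13.5 RPKM over the 8 lymph node libraries. The tissues differed in strain, sort and immunization, so these levels are given side by side and were not tested.

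**Figure D1:**
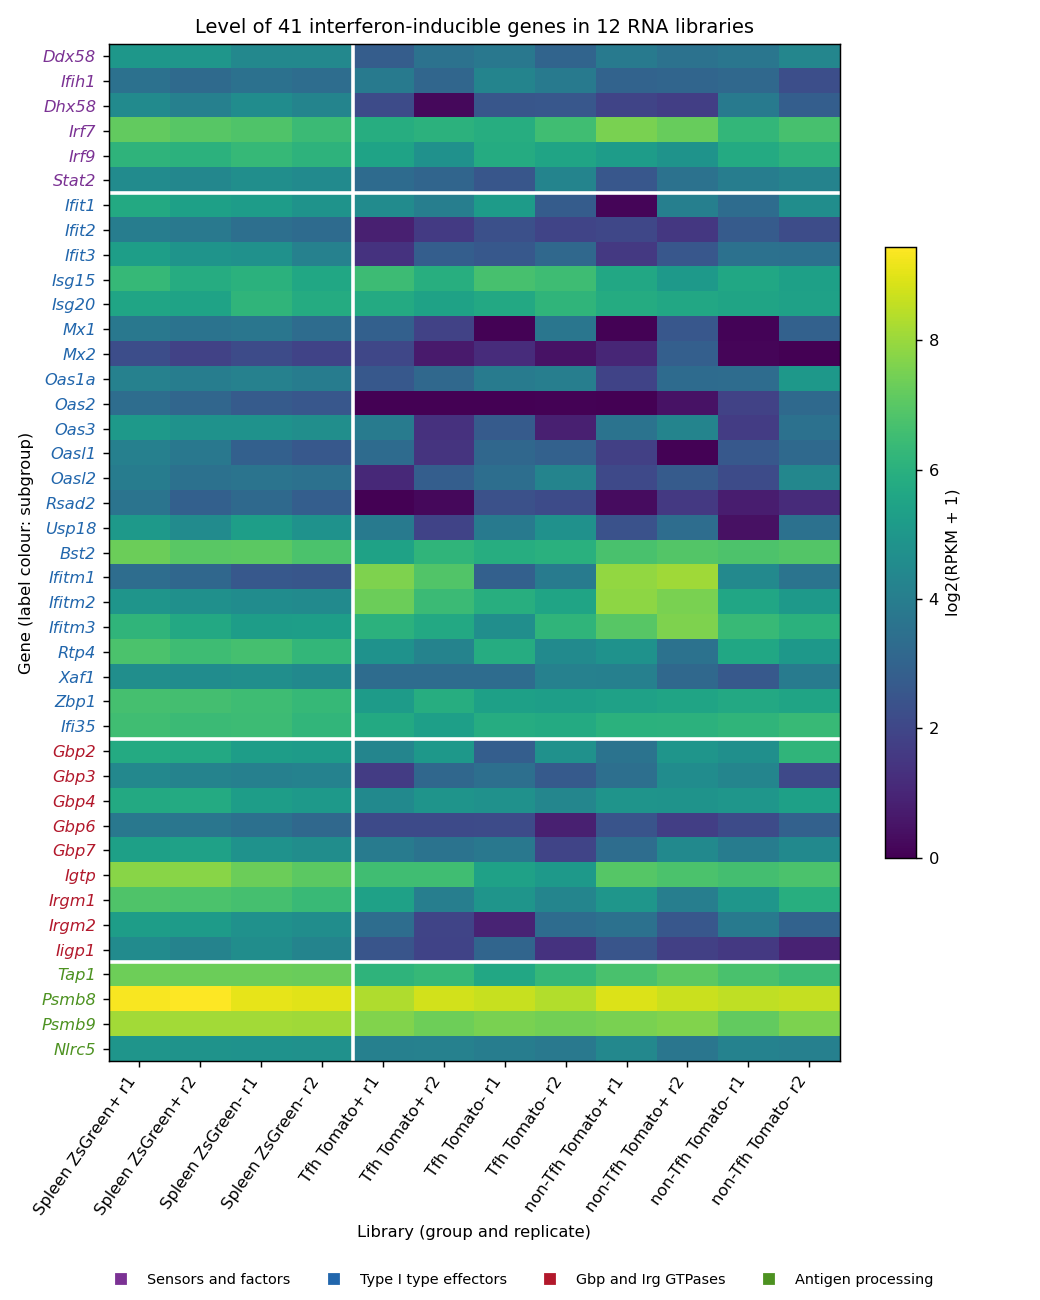
Heat map of the level of the 41 genes, as log2(RPKM + 1) in colour, by gene (rows, label colour by subgroup) and library (columns, 4 spleen and 8 lymph node). Of the antigen processing genes Psmb8, Psmb9 and Tap1 are bright in all 12 libraries, and Nlrc5 is dimmer. The spleen columns are even within a gene, and Ifitm1 and Ifitm2 are brightest in the 4 Tomato+ columns of the lymph node.

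Psmb8, a catalytic subunit of the immunoproteasome, had the highest level of the 41, at 646 and 692 RPKM in spleen ZsGreen+, 548 and 518 in spleen ZsGreen-, 316 and 442 in Tfh Tomato+, 397 and 327 in Tfh Tomato-, 493 and 404 in non-Tfh Tomato+, and 369 and 388 in non-Tfh Tomato-. Psmb9, another such subunit, ran from 272 to 280 RPKM over the spleen libraries and from 143 to 200.5 over the lymph node libraries. Tap1, a chain of the peptide transporter into the endoplasmic reticulum, ran from 154 to 161 and from 49.9 to 132. Nlrc5, the transactivator of class I genes, was lowest of the group, at 26.5 to 28.9 and 11.9 to 19.9. The ranges of Psmb9, Tap1 and Nlrc5 were several times wider in the lymph node than in the spleen.

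The first comparison asked how spleen cells with the T-bet reporter on differ from cells with the reporter off that had expressed it before. Of the 41 genes 15 were higher and 1 lower in ZsGreen+ cells at an adjusted p below 0.05 (edgeR quasi-likelihood test, Benjamini-Hochberg over 12918 genes). Of all genes tested 23.8% passed, 11.4% higher and 12.4% lower. The rises ran from 1.22-fold for Psmb8 to 2.44-fold for Oasl1, and the median log2 fold change over the 41 was 0.23, against 0.00 over all genes tested. Of the Gbp and Irg genes 6 of 9 rose and none fell, with a median log2 fold change of 0.48. Of the type I type genes 8 of 28 rose and 1 fell, with a median of 0.20, and a difference between the subgroups was not tested. Of the antigen processing genes 1 of 4 rose, Psmb8, by a log2 change of 0.29 ± 0.07 (adjusted p = 0.0187), and its call was lost without ZsGreen+ replicate 2 (adjusted p = 0.0899).

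Igtp, an immunity-related GTPase also called Irgm3, was at 218 and 215 RPKM in ZsGreen+ and 158 and 132 in ZsGreen- libraries. Both ZsGreen+ libraries lay above both others, and the log2 fold change was 0.54 ± 0.09 (SE; adjusted p = 0.00169). Irgm2, whose start region resembles that of Igtp, was at 37.0 and 35.6 RPKM against 26.0 and 23.9, a log2 change of 0.50 ± 0.08 (adjusted p = 0.00121). Irgm1, a regulatory GTPase of the same family, stood at 115 and 106 RPKM against 98.4 and 83.6, also without overlap, but at a log2 change of 0.24 ± 0.09 it did not pass the test (adjusted p = 0.0830). Irgm1 did pass with no filter on low counts and with a term for replicate number in the fit. Iigp1, an effector GTPase, overlapped between the groups, with 22.3 and 17.6 RPKM against 24.0 and 18.3.

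Among the guanylate-binding proteins, which assemble on pathogen membranes, Gbp7 had the largest change. Gbp7 was at 40.0 and 41.5 RPKM in ZsGreen+ and 26.8 and 23.9 in ZsGreen- libraries, a log2 change of 0.65 ± 0.08 (adjusted p = 0.000253). Gbp4 was at 52.7 and 54.1 RPKM against 37.1 and 33.6, a log2 change of 0.56 ± 0.08 (adjusted p = 0.000558). Gbp2 was at 54.1 and 50.2 RPKM against 37.3 and 35.4, a log2 change of 0.48 ± 0.08 (adjusted p = 0.00179). For all 3 the ZsGreen+ libraries lay together and above the others. Gbp6 was at 12.7 and 12.04 RPKM against 10.1 and 8.10, a log2 change of 0.41 ± 0.11 (adjusted p = 0.0202), and lost the call without ZsGreen+ replicate 1 (adjusted p = 0.0738) or ZsGreen- replicate 2 (0.0763). Gbp3 did not pass, with 20.2 and 17.9 RPKM against 16.2 and 17.0. By range alone 8 of the 9 Gbp and Irg genes were higher in both ZsGreen+ libraries, where 35.8% of all genes tested were. The Gbp genes are near-identical in places, so reads of one may be counted for another.

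Among the effectors of the type I type, Oasl1, an OAS-like protein that restrains translation of Irf7, had the largest change of the 41. It stood at 16.2 and 12.8 RPKM in ZsGreen+ and 6.50 and 5.13 in ZsGreen- libraries, a log2 change of 1.29 ± 0.15 (adjusted p = 0.000217). Its paralog Oasl2 overlapped between groups, with 14.8 and 10.5 RPKM against 11.5 and 10.3, and reads may be shared between them. Oas2, one of the enzymes that make the activator of RNase L, was at 9.29 and 7.74 RPKM against 5.56 and 4.93 (log2 change 0.66 ± 0.12, adjusted p = 0.00310). Oas3 at 33.2 and 27.0 RPKM against 26.7 and 24.3, and Oas1a at 16.8 and 14.8 against 16.9 and 14.5, did not pass. So within one family of antiviral enzymes 1 member passed the test and 2 did not, and a difference between members was not tested.

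The Ifit genes encode proteins that bind foreign RNA ends. Ifit2 was at 14.9 and 13.1 RPKM in ZsGreen+ and 9.91 and 8.93 in ZsGreen- libraries (log2 change 0.54 ± 0.10, adjusted p = 0.00330). Ifit1 was at 52.3 and 40.4 RPKM against 36.5 and 27.6 (0.50 ± 0.15, adjusted p = 0.0337). Ifit3 was at 38.5 and 28.7 RPKM against 26.2 and 16.7 (0.62 ± 0.19, adjusted p = 0.0434). The groups did not overlap, but for Ifit1 and Ifit3 replicate 2 of ZsGreen+ lay within a few RPKM of replicate 1 of ZsGreen-. The Ifit3 call was lost with DESeq2 (adjusted p = 0.284) and limma (0.0610), and the Ifit1 and Ifit3 calls were lost without ZsGreen+ replicate 1 or without ZsGreen- replicate 2.

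The Ifitm genes encode small membrane proteins that block virus entry. Ifitm1 was at 9.43 and 7.93 RPKM in ZsGreen+ and 5.10 and 4.71 in ZsGreen- libraries (log2 change 0.79 ± 0.20, adjusted p = 0.0198). Ifitm3 was at 71.8 and 51.2 RPKM against 37.5 and 38.4 (0.66 ± 0.15, adjusted p = 0.0108). Ifitm2 was at 29.1 and 25.5 RPKM against 23.0 and 21.8 and did not pass (0.25 ± 0.12, adjusted p = 0.187). All 3 were higher in both ZsGreen+ libraries. The Ifitm1 and Ifitm3 calls were lost without ZsGreen+ replicate 1.

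Isg20, a 3′ to 5′ exonuclease that degrades RNA, was the 1 gene of the 41 that fell. It was at 46.2 and 43.4 RPKM in ZsGreen+ and 70.4 and 54.8 in ZsGreen- libraries, and fell by 0.52 ± 0.11 on the log2 scale (adjusted p = 0.00796). By range it was also the only 1 of the 41 that was lower in both ZsGreen+ libraries, where 26.9% of all genes were. Isg15, a ubiquitin-like modifier with 3 overlapping response element matches before its start, was at 78.0 and 56.7 RPKM against 63.4 and 47.9 and did not pass (0.25 ± 0.16, adjusted p = 0.320). Usp18, which removes Isg15 from proteins, was at 32.2 and 22.4 RPKM against 38.1 and 27.1 and did not pass either (log2 change -0.28 ± 0.18). Usp18 did pass, as lower, with no filter on low counts and with a term for replicate number. Bst2, the tether of budding virions, had the highest level of the effectors, at 158 and 129.7 RPKM against 133 and 108, with overlap. Mx1, Rsad2, Rtp4, Xaf1, Zbp1 and Ifi35 did not pass, with log2 changes from 0.01 for Xaf1 to 0.29 for Rsad2, and neither did Mx2, whose groups overlapped.

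Of the 6 sensors and factors only Ddx58 passed, the RNA helicase known as RIG-I. It was at 31.2 and 30.3 RPKM in both ZsGreen+ and 20.4 in both ZsGreen- libraries (log2 change 0.55 ± 0.07, adjusted p = 0.000508). The other RNA helicases of its class, Ifih1 at 10.3 and 8.49 RPKM against 10.5 and 9.27 and Dhx58 at 21.8 and 16.3 against 23.3 and 18.0, overlapped between groups. Irf7, the factor that amplifies type I interferon production, was at 144 and 124 RPKM against 114 and 85.9, without overlap, and missed the threshold (0.39 ± 0.13, adjusted p = 0.0523). Its call depended on the setting: it passed with DESeq2 (adjusted p = 0.0131), with no filter on low counts, and with a term for replicate number. Irf9 and Stat2, partners in the type I complex, had log2 changes of -0.16 ± 0.09 and -0.18 ± 0.09 and did not pass.

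**Figure D2:**
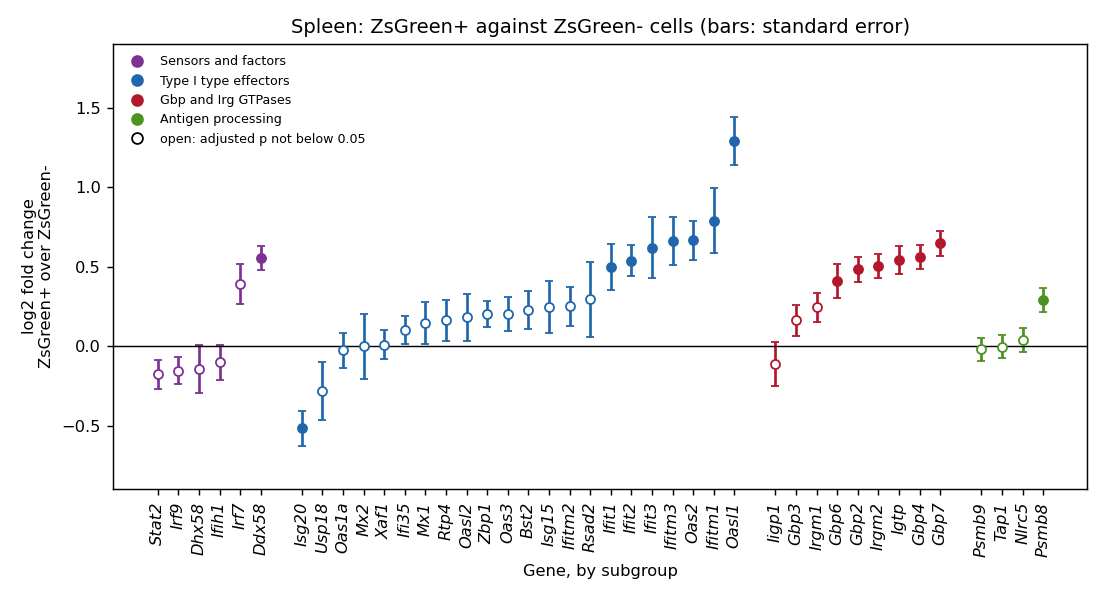
Log2 fold change of ZsGreen+ over ZsGreen- spleen cells (y axis) for the 41 genes (x axis, by subgroup), with bars of 1 standard error and open points where the adjusted p was not below 0.05. Of the 9 Gbp and Irg points, which run from -0.11 to 0.65, 6 are filled and sit close together at 0.41 to 0.65. The effectors spread from -0.52 for Isg20 to 1.29 for Oasl1.

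The replicates of a spleen group lay apart in one direction for the type I type genes. In the ZsGreen+ group replicate 1 was above replicate 2 for 28 of 28 type I type genes, with a median difference of 0.28 (log2 CPM), and in the ZsGreen- group for 26 of 28, with a median of 0.20. Over all genes tested replicate 1 was the higher in 50.2% and 49.6%. The median for the Gbp and Irg genes was 0.11 and 0.13, and for antigen processing 0.03 and 0.01. Leaving out 1 library unbalances the replicates, so part of this shift enters the group difference. The calls given above as lost without 1 library come from such unbalanced fits. With all libraries kept and a term for replicate number, 19 of the 41 genes passed in the spleen, against 16 without it. The size of the group difference of the type I type genes depended on which library was left out. Their median log2 fold change was 0.03 without ZsGreen+ replicate 1 and 0.10 without ZsGreen- replicate 2, against 0.35 without ZsGreen+ replicate 2 and 0.31 without ZsGreen- replicate 1, and the number that rose ran from 4 to 14 of 28. For the Gbp and Irg genes the median ran from 0.41 to 0.55 and the number that rose from 5 to 7 of 9.

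**Figure D3:**
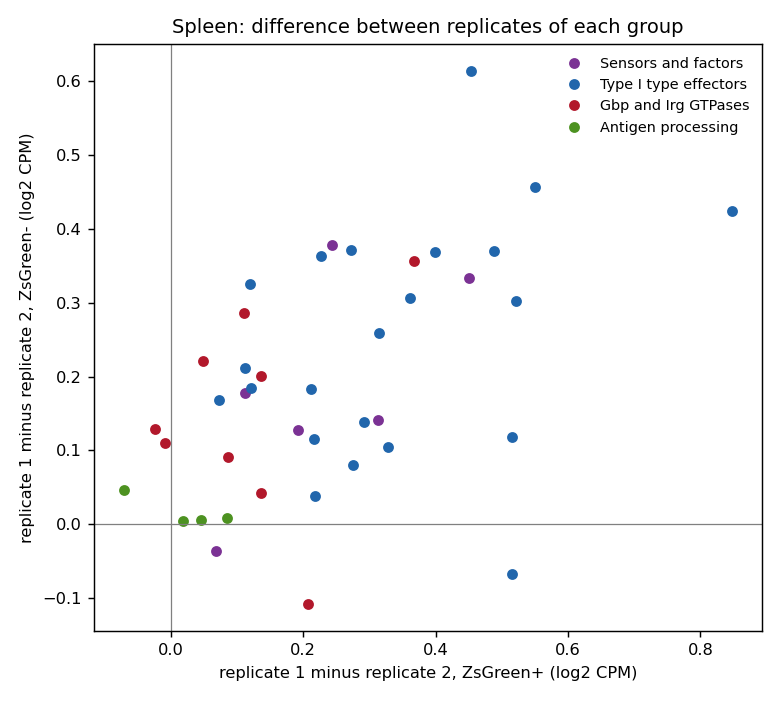
Difference between replicate 1 and replicate 2 (log2 CPM) in ZsGreen+ (x axis) and ZsGreen- (y axis) spleen cells, 1 point per gene, coloured by subgroup. Type I type points lie mostly to the upper right, with replicate 1 above replicate 2 in 28 of 28 and 26 of 28, and the antigen processing points lie near 0.

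Genes of the same pathway outside the 41 were counted from a set list. Of 13 signalling genes tested, 6 rose in ZsGreen+ cells, among them Ifng, Ifngr1, Irf1 and Socs1, and 2 fell (Ifngr2 and Socs3). Ifng, which encodes interferon gamma, was at 35.8 and 32.0 RPKM against 10.8 and 10.4 (log2 change 1.64 ± 0.11, adjusted p = 5.1e-06). Irf1, a transcription factor that interferon gamma induces, was at 169 and 170.5 RPKM against 116 and 120.2 (0.48 ± 0.07, adjusted p = 0.00115). Socs1, an inhibitor of the kinases, had a log2 change of 0.99 ± 0.10. The receptor chains of type I interferon, Ifnar1 and Ifnar2, did not pass, and Ifnb1 had 0 reads in all 12 libraries. Of 25 further inducible genes 10 rose, among them the GTPases Ifi47, Gbp5, Gbp8, Gbp9, Tgtp1 and Tgtp2, together with Herc6, Psmb10, Tapbp and B2m, and Ifi27l2a fell.

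Markers of other cells moved with the same comparison. All 4 natural killer (NK) cell markers rose, with a summed level of 55.1 to 58.2 RPKM in ZsGreen+ and 6.80 to 6.82 in ZsGreen- libraries. Of 11 macrophage markers tested 3 rose and none fell, with sums of 460.4 to 568 and 384 to 403 RPKM, and of 7 neutrophil markers 1 rose, with sums of 1087 to 1133 and 737 to 1001. Of 8 dendritic cell markers 2 rose (546 to 609.9 RPKM against 471 to 479), and these sums came mostly from H2-Aa, H2-Ab1 and H2-Eb1. Of the plasmacytoid cell markers 1 of 4 rose, and that list holds Bst2, which is itself among the interferon genes described here. Ccr9 on the same list was at 23.0 and 30.6 RPKM against 3.24 and 2.79. Of the B cell markers 1 of 6 fell, and neither of the CD8 T cell markers passed. No marker on these lists had 0 reads in both libraries of a spleen group. Cd4 itself was lower, at 189 and 199 RPKM against 362 and 381. The part of these cells in the changes of the interferon genes was not tested, and in bulk RNA fewer cells of a type cannot be told apart from less RNA per cell.

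In the lymph node the comparison of Tomato+ with Tomato- cells asked what a history of T-bet expression goes with in Tfh and in non-Tfh cells. The clearest member was Ifitm1. Its RPKM were 195 and 115 in Tfh Tomato+, 6.43 and 14.2 in Tfh Tomato-, 236 and 269 in non-Tfh Tomato+, and 20.6 and 11.5 in non-Tfh Tomato- libraries. The lowest Tomato+ library, at 115 RPKM, lay far above the highest Tomato- library, at 20.6, and the spleen libraries stood at 4.71 to 9.43. Averaged over Tfh and non-Tfh, the log2 change was 3.96 ± 0.38 (adjusted p = 0.00338), and the call held in 16 of 16 alternative settings.

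Ifitm1 rose with Tomato in non-Tfh cells, by a log2 change of 4.01 ± 0.54 (adjusted p = 0.0312), the only 1 of the 41 genes to pass there, where 0.332% of genes did and 0.204% were higher. That call was lost in 8 of 17 settings, among them each fit that left out 1 of the 4 compared libraries (adjusted p from 0.0503 to 0.150). In Tfh cells the change was 3.90 ± 0.54 and missed the threshold (adjusted p = 0.0611). None of the 41 passed in Tfh cells, where 0.111% of genes did. At an unadjusted p below 0.05 there were 4 of the 41, and DESeq2 called 2 of them and limma 1.

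Ifitm2, next to Ifitm1 on chromosome 7, was at 159.7 and 85.8 RPKM in Tfh Tomato+, 58.8 and 44.2 in Tfh Tomato-, 225 and 187 in non-Tfh Tomato+, and 46.9 and 33.4 in non-Tfh Tomato- libraries. All 4 Tomato+ libraries lay above all 4 Tomato- libraries. The averaged log2 change was 1.82 ± 0.30 (adjusted p = 0.0449), and it held in 7 of 16 settings, with 7 of the 8 fits that leave out 1 library among those that lost it. Ifitm3 was at 65.2 and 51.1 RPKM in Tfh Tomato+, 24.6 and 71.5 in Tfh Tomato-, 125 and 195 in non-Tfh Tomato+, and 80.2 and 64.5 in non-Tfh Tomato- libraries. It was separated by Tomato in non-Tfh cells, overlapped in Tfh cells, and passed no lymph node contrast. The 3 genes are close paralogs and short, so reads may be shared between them.

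Ifitm1 and Ifitm2 were the 2 genes of the 41 that passed in the averaged Tomato contrast, both higher, where 0.656% of genes passed and 0.477% were higher. By range they were also the 2 genes higher in all 4 Tomato+ libraries, where 3.11% of genes were. In the other direction 3 of the 41, Dhx58, Irf9 and Oas1a, were lower in all 4 Tomato+ libraries, and none of them passed. The share of all genes lower in this way is not given here. Of the 28 type I type genes 21 had a negative averaged change, none of them past the threshold, and the median was -0.37. The Gbp and Irg genes had 5 positive and 4 negative changes and a median of 0.01. Within each cell type the medians for the type I type genes were -0.44 in Tfh cells, with 22 of 28 negative, and -0.16 in non-Tfh cells. For the Gbp and Irg genes they were 0.30 in Tfh cells, with 7 of 9 positive, and -0.28 in non-Tfh cells. The medians over all genes tested were 0.01 and 0.00, and these contrasts share libraries with the averaged one.

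**Figure D4:**
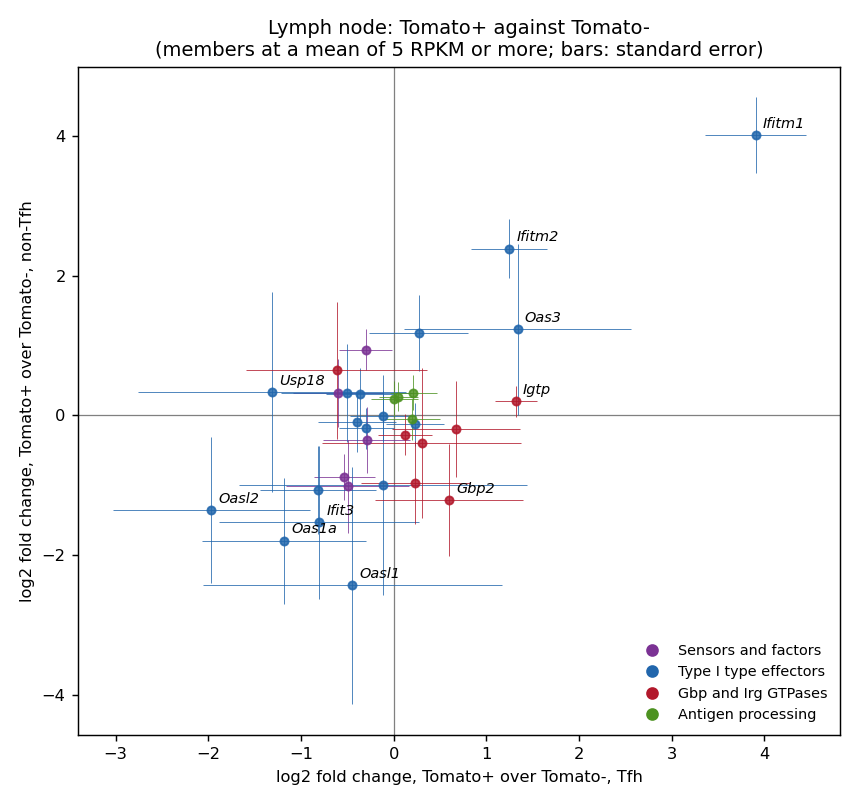
Log2 fold change of Tomato+ over Tomato- in Tfh cells (x axis) against the same in non-Tfh cells (y axis) for the 33 genes with a mean of at least 5 RPKM over the lymph node libraries, with bars of 1 standard error. Ifitm1 stands alone at 3.90 and 4.01, Ifitm2 lies at 1.24 and 2.39, and the standard errors of many other genes cross 0 in both directions.

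Markers of myeloid cells moved the opposite way. The summed level of the macrophage markers was 118 to 484 RPKM in the 4 Tomato+ libraries and 907 to 1388 in the 4 Tomato- libraries, with 2 of 11 tested lower in the averaged contrast (Lyz2 and Apoe). The dendritic cell markers summed to 362 to 593 and 1237 to 2499 RPKM, with 3 of 7 lower. These sums came mostly from the class II genes on the list, H2-Aa, H2-Ab1 and H2-Eb1. The other markers of that list stayed at 7.16 RPKM or less in all 8 libraries. Of the 7 averaged changes 6 were negative and 1 positive. The neutrophil markers were uneven, at 329.7 and 444 RPKM in the Tomato- replicate 2 libraries and at 79.6 or less in the others, and Mmp8 had 0 reads in all 8. Clec9a, a marker of cross-presenting dendritic cells, did not tell the classes apart. It had 0 reads in all 4 Tomato+ libraries and in both Tfh Tomato- libraries, and 0 and 25 in non-Tfh Tomato-. NK cell markers summed to 34.4 to 47.8 RPKM in Tomato+ and 7.47 to 14.2 in Tomato- libraries. The part of these cells in the rise of Ifitm1 and Ifitm2 was not tested. Without both Tomato- replicate 2 libraries the averaged change of Ifitm1 was 4.12 (adjusted p = 0.0166), while that of Ifitm2 was 1.61 and no longer passed (adjusted p = 0.264). Ifitm1 in non-Tfh cells alone did not pass there either (3.67, adjusted p = 0.134).

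The comparison of Tfh with non-Tfh cells turned on Igtp. It was at 92.1 and 92.9 RPKM in Tfh Tomato+, 41.1 and 32.3 in Tfh Tomato-, 123 and 108 in non-Tfh Tomato+, and 97.1 and 107 in non-Tfh Tomato- libraries. All 4 Tfh libraries lay below all 4 non-Tfh libraries, and the Tfh Tomato- pair lay apart at the bottom. Averaged over Tomato, Igtp fell by 0.97 ± 0.16 on the log2 scale in Tfh (adjusted p = 0.0360), the only 1 of the 41 to pass, where 1.07% of genes passed and 0.519% were lower. By range 4 of the 41 were lower in all 4 Tfh libraries, where 2.52% of genes were. The Igtp call was lost in each of the 8 fits that left out 1 library (adjusted p from 0.0552 to 0.135) and held in 5 of 16 settings in all.

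Within each Tomato class no member passed. In Tomato- cells Igtp had a log2 change of -1.53 ± 0.23 (adjusted p = 0.0596), where 0.179% of genes passed. In Tomato+ cells it had -0.41 ± 0.22 (adjusted p = 0.692), where 0.0766% did. With edgeR 6 and 4 members had an unadjusted p below 0.05 in the 2 classes, and DESeq2 called 2 and 1, limma 1 and 0. Within Tfh cells Igtp was higher in Tomato+ by 1.32 ± 0.23 without passing (adjusted p = 0.126). The difference between these changes, the interaction of Tomato with Tfh, was 1.11 ± 0.32 (adjusted p = 0.774). By edgeR 0 of the 41 genes and 0% of all genes passed for the interaction. At an unadjusted p below 0.05 there were 2 members, Igtp and Irf7, and DESeq2 and limma each called 0.

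Other members leaned the same way as Igtp. Of the 9 Gbp and Irg genes 8 had a negative averaged change, with a median of -0.72, against -0.24 for the type I type genes and 0.01 for all genes tested. Bst2 was at 42.0 and 70.4 RPKM in Tfh Tomato+, 57.7 and 62.6 in Tfh Tomato-, 105 and 119.6 in non-Tfh Tomato+, and 111 and 119 in non-Tfh Tomato- libraries. Every Tfh library lay below every non-Tfh library, and the averaged log2 change of -1.04 ± 0.25 did not pass (adjusted p = 0.138). Tap1 at 49.9 to 78.5 RPKM in Tfh and 88.6 to 132 in non-Tfh, and Ifi35 at 38.7 to 56.4 and 64.8 to 80.8, were separated in the same way without passing. Isg15 ran the other way, at 59.5 to 103 RPKM in Tfh and 32.8 to 49.1 in non-Tfh libraries, with a log2 change of 0.91 ± 0.30 (adjusted p = 0.278).

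The other GTPases overlapped between most lymph node groups. Irgm1 was at 41.2 and 15.6 RPKM in Tfh Tomato+, 29.5 and 18.4 in Tfh Tomato-, 30.0 and 15.5 in non-Tfh Tomato+, and 29.9 and 59.5 in non-Tfh Tomato- libraries, so that every group overlapped another. Gbp4 varied less, at 21.5 and 28.5 RPKM in Tfh Tomato+, 26.5 and 19.0 in Tfh Tomato-, 28.9 and 27.8 in non-Tfh Tomato+, and 30.0 and 39.8 in non-Tfh Tomato- libraries. Gbp2 ran from 6.05 to 71.0 RPKM, and these extremes were Tfh Tomato- replicate 1 and non-Tfh Tomato- replicate 2. Irgm2 stood at 0.916 to 13.6 RPKM over the 8 libraries and did not separate by group.

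Of the sensors and factors, Irf9 was at 42.9 and 26.5 RPKM in Tfh Tomato+, 54.7 and 44.9 in Tfh Tomato-, 36.2 and 28.1 in non-Tfh Tomato+, and 53.8 and 66.9 in non-Tfh Tomato- libraries. All 4 Tomato+ libraries lay below all 4 Tomato- libraries, and the averaged log2 change of -0.71 ± 0.23 did not pass (adjusted p = 0.325). Ddx58 was at 5.89 and 10.7 RPKM in Tfh Tomato+, 12.7 and 7.27 in Tfh Tomato-, 13.3 and 10.9 in non-Tfh Tomato+, and 12.1 and 19.1 in non-Tfh Tomato- libraries. Oasl1, the gene with the largest spleen change, ran from 0.0351 to 8.92 RPKM, with both extremes in Tomato+ libraries.

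Irf7 was the factor with the highest level. It was at 58.5 and 65.5 RPKM in Tfh Tomato+, 58.2 and 93.1 in Tfh Tomato-, 186 and 152 in non-Tfh Tomato+, and 75.6 and 103 in non-Tfh Tomato- libraries. The non-Tfh Tomato+ pair lay above the other 6 libraries. Within Tomato+ cells the log2 change of Tfh against non-Tfh was -1.54 ± 0.29 (adjusted p = 0.135 with edgeR, 0.000389 with DESeq2).

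**Figure D5:**
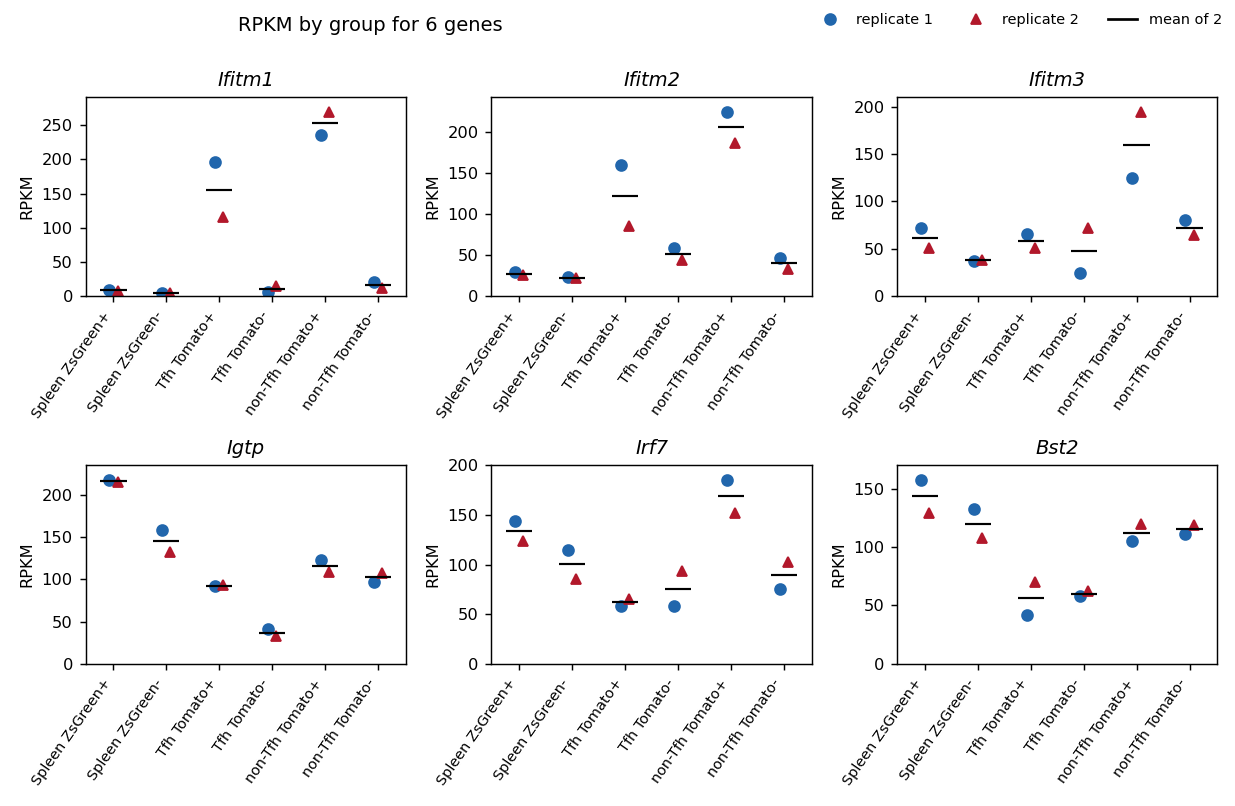
RPKM (y axis, from 0) of Ifitm1, Ifitm2, Ifitm3, Igtp, Irf7 and Bst2 in the 6 groups (x axis), with replicate 1 as circles, replicate 2 as triangles and the mean of 2 as a line. Ifitm1 and Ifitm2 are high in both Tomato+ groups of the lymph node, Igtp is lowest in Tfh Tomato- at 41.1 and 32.3 RPKM, and Irf7 is highest in non-Tfh Tomato+ at 186 and 152.

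Several effectors were present in one replicate of a lymph node group and nearly absent in the other. Of the 41 genes, those with 0 reads in 1 replicate of a group were not counted there, 2 in Tfh Tomato+ and 1 in non-Tfh Tomato-. Of the others, 12 to 15 differed over 2-fold between the replicates of each lymph node group, and none did in the spleen groups. Of the 38 with a mean of 5 RPKM or more over the 12 libraries, 11 did in Tfh Tomato+ and 12 in each other lymph node group, where 22.5% to 30.1% of all such genes did, so the count lies close to that of genes in general. Ifit1 was at 0.10 and 15.9 RPKM in the 2 non-Tfh Tomato+ libraries. Mx1 was at 0.04 and 12.1 RPKM in Tfh Tomato-, with 3 and 864 reads. Oas2 had 0, 2, 2 and 4 reads in the 4 Tfh libraries, 1 and 39 in non-Tfh Tomato+, and 243 and 614 in non-Tfh Tomato-. Oas2 counts of 3 or fewer are at or under the floor used here for counting error, and no fold change is given for it in the lymph node.

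Some pathway genes outside the 41 passed in the lymph node, on lists chosen with earlier results of these data known. Of 13 signalling genes tested, 1 was higher with Tomato in Tfh cells, where 0.111% of all genes passed in either direction. In non-Tfh cells 2 were higher, where 0.204% of all genes were, and averaged over both cell types 2 were, against 0.477%. None was lower with Tomato. Averaged over Tomato, 2 of the 13 were lower in Tfh than in non-Tfh cells, as was 1 of the 25 further inducible genes, where 0.519% of all genes were. Within Tomato- cells 1 of the 13 was lower in Tfh, where 0.179% of all genes passed in either direction. Ifngr1, the ligand-binding receptor chain, was at 186 and 190.6 RPKM in Tfh Tomato+, 52.6 and 58.0 in Tfh Tomato-, 479.7 and 391 in non-Tfh Tomato+, and 162 and 148 in non-Tfh Tomato- libraries. It was higher with Tomato in Tfh (log2 change 1.76 ± 0.18, adjusted p = 0.0127) and in non-Tfh cells (1.51 ± 0.17, adjusted p = 0.0219), and lower in Tfh than in non-Tfh cells on average (-1.42 ± 0.12, adjusted p = 0.00376). Ifng was at 87.2 and 91.3 RPKM in Tfh Tomato+, 10.5 and 1.03 in Tfh Tomato-, 240.3 and 296 in non-Tfh Tomato+, and 1.30 and 1.83 in non-Tfh Tomato- libraries. Irf1 was at 64.6 to 107 RPKM in Tfh and 135 to 225 in non-Tfh libraries and fell by 1.09 ± 0.16 in Tfh on average (adjusted p = 0.0244). B2m, the light chain of class I molecules, fell by 0.44 ± 0.08 (adjusted p = 0.0496).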

How the data were processed

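Polyadenylated RNA of sorted mouse CD4 T cells was sequenced in 12 libraries. Per transcript of RefSeq (29257 rows), the authors deposited a whole-number read count and an RPKM value. The deposited spleen tables name the read count column as length and the reverse, which was settled from the values. CASAVA 2.18, Bowtie2, SICER 1.1, edgeR and build mm9 are named in the submitters' processing notes, but the sources used here did not give the step each served, or whether strand was used. The row with the most reads stood for a symbol (4019 symbols had several). Counts were tested with edgeR 4.0.16 in R 4.3.3 (TMM, filterByExpr, quasi-likelihood F test, Benjamini-Hochberg over all genes, threshold 0.05), the 4 spleen and the 8 lymph node libraries in separate fits, the latter with 7 contrasts that share groups. The standard error is the absolute log2 change over the square root of F. A library with 3 reads or fewer of a gene was taken as at the floor, which allows for counting error alone. The fits were tested on simulated data. There the spleen fit made more false calls than the threshold aims at, and the lymph node fit missed most of the changes put in. Alternatives were DESeq2 1.42.0, limma 3.58.1 on log2(RPKM + 1), other factors and filters, summed rows, a replicate block and left-out libraries. All 41 genes could be named. In full stand those called and the 3 of each subgroup with the highest mean RPKM. The genes and lists were chosen with earlier results of these data known. DNase islands were not analysed here. The values of 1 listed signalling gene are not reported here.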

Additional observations from a re-analysis of the deposited data

Results flagged for a closer look

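By range alone Rsad2, an antiviral enzyme also called viperin, went opposite ways in the comparison of Tfh with non-Tfh cells. The 41 genes were searched for such a reversal in the Tomato and the Tfh comparisons, and only Rsad2 was found. How often genes outside the 41 reverse in this way was not counted. In Tomato+ cells both Tfh libraries (0.00 and 0.16 RPKM, 0 and 14 reads) lay below both non-Tfh libraries (0.23 and 1.98 RPKM, 20 and 201 reads). In Tomato- cells both Tfh libraries (4.05 and 3.45 RPKM) lay above both non-Tfh libraries (0.67 and 1.22 RPKM). The fitted log2 interaction was -5.84 ± 2.91 and did not pass (edgeR quasi-likelihood test over all genes, adjusted p = 0.812). With 0 reads in 1 library, this value depends on the prior count. Groups of 2 libraries were not searched for outlying samples.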

How the results depend on the processing

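The count of members called in the spleen stayed within 1.5 times of 16 in all 11 settings: 12 to 22 leaving out 1 library, 15 to 19 otherwise. All genes called there ran from 2150 to 3681 (3074 in the report). Of 20 log2 changes of called members none reversed, and 11 kept their call in every setting run. In the lymph node counts moved. For Tomato in Tfh (0) they were 2 with DESeq2, 1 with limma, without a filter or at 5 RPKM, and 0 to 1 leaving out 1 library. For Tomato in non-Tfh (1) they were 3 with DESeq2, 2 with limma or without a filter, 0 with rows summed, with the replicate block, with only the 4 compared libraries or without both Tomato- replicate 2 libraries, and 0 to 1 leaving out 1 library. For Tfh against non-Tfh they were 1 with DESeq2 in Tomato+ (0), and in Tomato- (0) 2 with DESeq2 and 1 with limma, without a filter or at 5 RPKM. For Tomato averaged (2) they were 1 with rows summed or without both Tomato- replicate 2 libraries, and 1 to 2 leaving out 1 library. For Tfh averaged (1) they were 5 with DESeq2, and 0 with rows summed, with the replicate block, without both Tomato- replicate 2 libraries, and leaving out 1 library. For Tomato averaged DESeq2 called 3 members, the added one being Igtp, higher. Over all genes DESeq2 called 258, 554, 414, 524, 640, 725 and 143 in the 7 lymph node contrasts, where edgeR called 13, 39, 9, 21, 77, 126 and 0. The cause was not tested. A left-out library leaves 1 sample in its group, assumed to vary like the others. Replicate numbers were not shown to pair samples: the correlation of same-numbered deviations was 0.119 over all genes in the spleen, from 2 numbers (0.51 over the 41 members, 35 of them higher in replicate 1 of both groups), and -0.01 to 0.03 in the lymph node. With the replicate block 19 members were called in the spleen, the added ones being Irf7 (adjusted p = 0.0022) and Irgm1 (0.0442), higher, and Usp18 (0.0226), lower, and these 3 also passed without a filter. The planned count of DNase islands at gene starts was not run, for want of gene positions on mm9. The lymph node coefficient of variation of 0.908 limits what its fits can call, and a gene that did not pass there is not shown to be unchanged.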
